A study of Homo sapiens with 2 samples.

Results

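Reh is an established cell line from a pre-B leukaemia that has the t(12;21) translocation. It was transduced with pCCL ETV6-HA, a viral vector that adds ETV6 fused to an HA epitope. ChIP DNA from anti-HA beads was sequenced as 1 pooled library. The comparison group was Reh transduced with pCCL ETV6, which lacks the tag. It went through anti-HA beads too, as the background pool, also as 1 library. Cells of both groups received 200 ng of virus with polybrene at 8 µg/mL and stayed in culture for 2 weeks, so both carried a vector copy of ETV6. The tagged pool has 1 list of 315787 peaks in hg19 coordinates, and no replicate spread could be measured.

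The regions described here are isolated wide peaks of that list. A peak was wide when it spanned at least 300 bp, and isolated when fewer than 3 other wide peaks had their summit, the position of highest read coverage, within 500 kb. Only the 21 autosomes other than chromosome 21 were searched. They held 302386 peaks, of which 3584 were wide, and 1598 of those were isolated. These 1598 made up 0.529% (0.503 to 0.555, exact Clopper-Pearson 95% interval) of the peaks on these chromosomes. They were chosen by their width and their distance from other wide peaks in this list, so their width, height and fold enrichment are given as a description and 0 tests were made. All intervals in this text are of that kind and cover counting error over peaks only.

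ETV6 is an ETS-family transcription factor. Factors of this family bind DNA at short motifs built on a GGAA core, and ETV6 acts mainly as a repressor through corepressor complexes. In a ChIP peak list the summit marks the place where most sequenced fragments overlap, and the width is the distance between the edges the caller reports. Whether coverage stayed above the caller's threshold over the whole width of a peak was not examined. A single point of crosslinking is usually seen as a peak with its summit near the middle.

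Most isolated wide peaks were wide without being tall. Their median width was 339 bp, with quartiles at 316 and 382 bp and a range from 300 to 1344 bp. Their median pileup, the number of reads stacked at the summit, was 18, and 1121 of 1598 (70.2%, 67.8 to 72.4) had fewer than 20 reads. The lowest had 13 reads. The median fold enrichment over local background, a value of the authors' peak caller at each summit, was 3.4. By comparison, the 298802 narrow peaks (under 300 bp) of these chromosomes had a median width of 97 bp, a median pileup of 14 reads and a median fold of 2.84.

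Taller peaks were a minority among them, yet were far more frequent than in the list at large. At least 25 reads were reached by 278 isolated wide peaks (17.4%, 15.6 to 19.4), where all peaks of these chromosomes had 0.769%. A q of at most 0.01 was reached by 1307 (81.8%, 79.8 to 83.7), where the background share was 19.8%. Width and height come from the same coverage, so nothing is read from these gaps. Within the set, cut at 300 bp by the rule, median width differed by height class as follows. The 278 peaks with 13 to 15 reads had a median width of 323.5 bp, and the 843 with 16 to 19 reads had 335 bp. The next classes held 199 peaks with 20 to 24 reads (340 bp) and 150 with 25 to 49 reads (365.5 bp). The 128 with 50 reads or more had 401.5 bp. Most peaks of the list have the same lowest value of local background, 4.29 reads, called the shared background here. It was the value at 1456 of the isolated wide peaks.

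Seen the other way, a wide peak was rare at low coverage and common at high coverage, whether isolated or not. At the shared background, 399 of 26948 peaks with exactly 16 reads (1.48%) were at least 300 bp wide. The share was 4.25% at 18 reads and 9.36% at 20 reads. Of the 818 peaks with at least 30 reads, 374 (45.7%) were wide, and of the 268 with at least 50 reads, 189 (70.5%). At the limit of the rule nothing changed abruptly. The 24 isolated peaks of exactly 300 bp had a median pileup of 17 reads (range 14 to 33), and the 25 peaks of 299 bp that met the isolation rule also had 17 (13 to 51).

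The local background value behind each peak, recovered from the list and taken to come from the untagged pool, served as a check on how ordinary these places were. A background above the shared 4.29 reads was found at 142 isolated wide peaks (8.89%, 7.54 to 10.4), where the share over all peaks of these chromosomes was 3.63%. It was 42.9% (40.7 to 45.1) among the 1986 wide peaks that were not isolated. Of the 142, 121 had less than 10 reads of background and the median was 5.17 reads. Places with a raised background were thus a minority of the isolated wide peaks, yet more frequent among them than over all peaks. Among peaks with fewer than 20 reads the share was 6.96% for isolated wide peaks and 3.03% for narrow ones. The part of the isolation rule in these shares was not tested. No repeat annotation was used, so "away from repeats" can be said of no single peak.

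**Figure D1:**
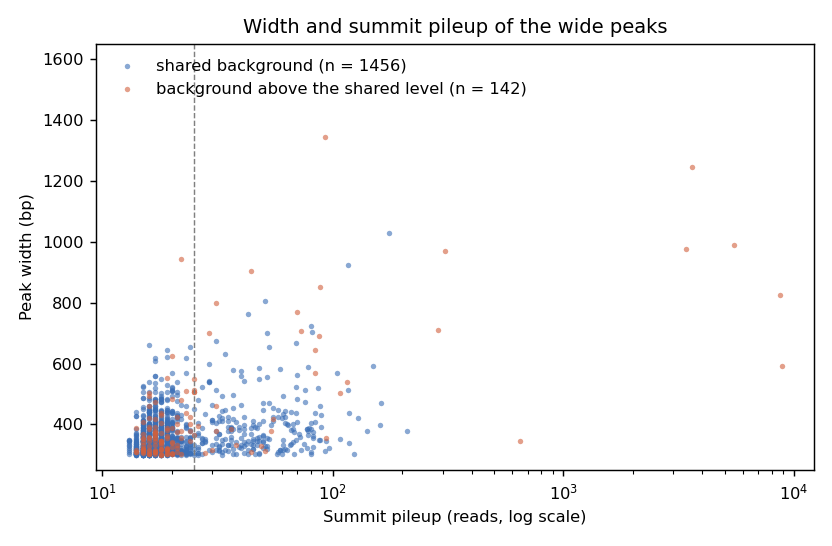
Each point is 1 isolated wide peak, with its summit pileup in reads on a log axis and its width in bp; colour gives the background class and the dashed line marks 25 reads. Points below 20 reads lie mostly under 400 bp, with the widest at the shared background at 661 bp, and the points beyond 1000 reads all have a raised background.

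A background of at least 20 reads was found at 13 isolated wide peaks, and these were very wide (median 826 bp) with low folds of 2.62 to 4.15. They supplied 9 of the 20 widest. The widest of all, chr10:38817446-38818789, spanned 1344 bp with 92 reads over a background of 25.9, a fold of 3.46. Next came chr6:58778114-58779359, 1246 bp wide, with 3617 reads over 1208, and its neighbour chr6:58776830-58777807, with 3399 over 850.5. The peak chr1:121484426-121485413 had 5489 reads over 1595 and that at chr7:61968803-61969628 had 8697 over 2556. At each of these the background was high as well. A raised background was seen at 28 of the 91 isolated peaks of at least 500 bp and at 14 of the 20 of at least 700 bp. Its part in their width was not tested, so what follows on the widest peaks is given for the shared background.

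At the shared background most of the widest isolated peaks were also tall. The 20 widest spanned 593 to 1030 bp, lay on 14 chromosomes and had a median fold of 7.47, and 13 of them had at least 25 reads. The widest, chr17:8982704-8983733, was 1030 bp long with 175 reads and a fold of 33.3. On chromosome 7, chr7:68664016-68664938 was 923 bp long with 116 reads and a fold of 22.1. The peak chr11:67176648-67177453, at 806 bp, had 51 reads and a fold of 9.84, and chr4:139786218-139786980, at 763 bp, had 43 reads and a fold of 8.32. Then followed chr10:135072439-135073162 at 724 bp with a fold of 15.3 and chr19:18076499-18077201 at 703 bp with a fold of 15.5. Height did not rank them. The 661 bp peak chr17:66145629-66146289 had only 16 reads and a fold of 3.22, and the 646 bp peak chr3:112590289-112590934 had 19 reads and 3.78.

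The genes nearest to these peaks were not assigned by coordinate, because the gene table used here is on GRCh38.p14 and the peaks are on hg19. Known genes of the same chromosome bands are given as textbook background only, each band holds many other genes, and no distance was measured. Not every peak of the lists was given a gene. The band 16q24 is named with CBFA2T3 for one peak and with DPEP1 for another, so a band links no gene to a peak. The genes were picked after the peaks were seen, and all 13 symbols in the set were found on the stated chromosome in the RefSeq table. NTN1, which encodes the axon guidance cue netrin-1, maps to 17p13, the band of the widest peak. AUTS2, a gene linked to neurodevelopment, maps to 7q11 with the 923 bp peak. TBC1D10C, a regulator of lymphocyte signalling, maps to 11q13 with the 806 bp peak. ADAM8, a membrane metalloprotease of leukocytes, maps to 10q26, and KCNN1, a calcium-activated potassium channel, to 19p13. EHD2, which acts at caveolae, maps to 19q13, the band of the 653 bp peak chr19:48244990-48245642 (53 reads, fold 10.2). The widest isolated peak of chromosome 16, chr16:89045006-89045679, was 674 bp wide with 31 reads and a fold of 6.05. CBFA2T3, a corepressor gene of the family that includes the leukaemia fusion partner RUNX1T1, maps to that band, 16q24.

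Among the tallest isolated wide peaks at the shared background, widths varied. The 14 with at least 100 reads spanned 303 to 1030 bp with a median of 430 bp, and included the 2 widest, on chromosomes 17 and 7. The largest fold among them was at chr5:17282973-17283349, with 39.9 and 210 reads in 377 bp. BASP1, a growth-cone and nuclear corepressor protein gene, maps to the same band, 5p15. The peak chr16:89682983-89683452 had a fold of 30.8 in 470 bp, and DPEP1, a dipeptidase gene, is a gene of that band, 16q24. In 399 bp, chr4:77439458-77439856 had a fold of 30.5, in the band 4q21 of SHROOM3, an actin-binding regulator of cell shape. The peak chr17:45252196-45252575 had a fold of 26.7 in the band of CDC27, a subunit of the anaphase-promoting complex, and chr1:114392674-114393095 had 24.6 in the band of PTPN22, a phosphatase that dampens lymphocyte receptor signalling. None of the 14 had its summit more than 25% of the width from the midpoint.

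One isolated wide peak lay in the interval of very high folds on chromosome 12 (11905360 to 12043992), in the band of ETV6 itself. It was chr12:12022335-12022925, 591 bp wide, with 8853 reads over a background of 17.9 and a fold of 469. Both groups carried an ETV6 vector, and no step separated reads of the vector from reads of bound chromatin. Outside this interval the largest fold of an isolated wide peak was 39.9. Without it, the 9 values recomputed under each setting (number, median width, pileup, fold and summit position, 3 shares and the density on chromosome 19) stayed within their intervals or 1.5 times.

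Where the summit lay inside the peak depended on height. Its position was measured as a percentage of the width from the lower-coordinate edge, so that 50% is the midpoint. Over all 1598 the median was 50.2%, and 519 (32.5%, 30.2 to 34.8) had a summit more than 25% of the width from the midpoint, called off-centre here, beside 30% over all peaks of these chromosomes. The share fell with height. It was 46.4% (40.4 to 52.5) at 13 to 15 reads, 37.7% (34.4 to 41.1) at 16 to 19 reads, 21.1% (15.7 to 27.4) at 20 to 24 reads, 15.3% (9.98 to 22.1) at 25 to 49 reads and 5.47% (2.23 to 10.9) at 50 reads or more. Between the lowest and the highest class the intervals did not overlap. At the shared background alone the values were 46.4% and 1.87% for these 2 classes. The fall was not particular to isolated wide peaks. At any background, off-centre summits made up 33.6% of narrow peaks with 12 to 15 reads and 4.47% of those with 50 reads or more. Among wide peaks that were not isolated the shares were 42.95% at up to 15 reads and 14.93% at 50 reads or more.

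Low isolated wide peaks seldom had their summit in the middle. Of the 1121 with fewer than 20 reads, 466 (41.6%) had it between 10% and 40% of the width and 441 (39.3%) between 60% and 90%. Another 175 (15.6%, 13.5 to 17.9) had it in the central part, from 40% to 60%. The distribution thus had 2 humps with a dip at the midpoint. Narrow peaks with fewer than 20 reads had 29.9% (29.7 to 30.1) in the central part and no dip. A low central share was not particular to isolated peaks. Among the 812 wide peaks with fewer than 20 reads that were not isolated, 18.6% (16 to 21.4) were central and 40.8% off-centre, beside 39.9% off-centre among the isolated ones. With at least 25 reads the central part held 44.2% (38.3 to 50.3) of the isolated wide peaks, as 123 of 278, and 65.4% (62.8 to 67.9) of narrow ones. The dip was still visible at 20 to 24 reads, where 24.6% (18.8 to 31.2) were central.

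**Figure D2:**
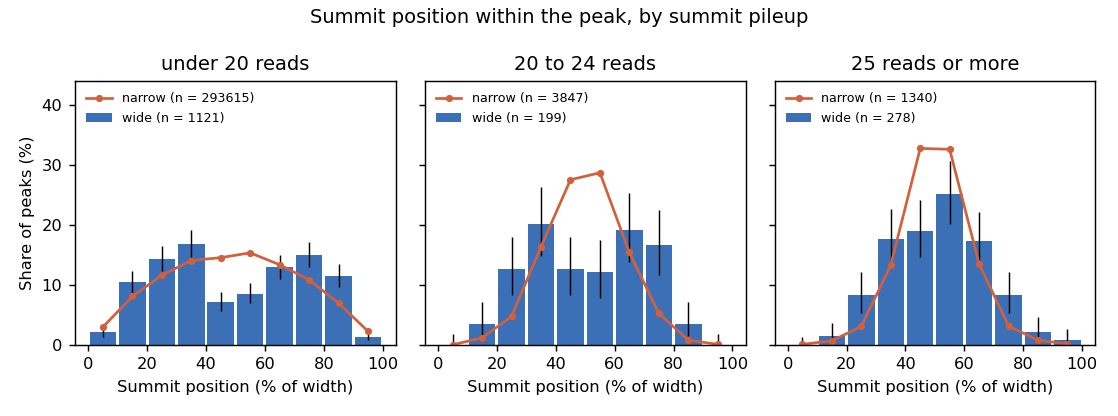
Share of peaks (%) by summit position in steps of 10% of the width, in 3 panels by summit pileup; bars are isolated wide peaks with exact 95% intervals and lines are narrow peaks of the same chromosomes. Below 20 reads the bars dip in the 2 middle steps, to 7.14% and 8.48%, while at 25 reads or more the step from 50% to 60% is the fullest with 25.2%.

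In base pairs, the longer side of the peak hardly varied with height and the shorter side did. The median distance from the summit to the farther edge was 243.5 bp at 13 to 15 reads, 245 bp at 16 to 19, 231 bp at 20 to 24, 228.5 bp at 25 to 49 and 242.5 bp at 50 reads or more. To the nearer edge it was 89 bp, 99 bp, 115 bp, 133.5 bp and 159 bp in the same classes. The ratio of the longer to the shorter side accordingly had a median of 2.71 in the lowest class and 1.45 in the highest. The rule holds the whole width at 300 bp or more, so a low peak with a short nearer side must have a long farther side. Nothing is therefore read from the steady longer side. Among narrow peaks the median distance to the farther edge was 59 bp at 12 to 15 reads and 124 bp at 50 reads or more. Over the whole set 529 peaks (33.1%, 30.8 to 35.5) had a longer side at least 3 times the shorter. This is nearly the same measure as an off-centre summit, found at 519 (32.5%), beside 30% over all peaks of these chromosomes.

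No lean to either direction along the chromosome was seen. The longer side pointed to higher coordinates at 796 peaks (49.8%, 47.3 to 52.3) and both sides were equal at 2. Of the 407 off-centre peaks with a narrow neighbour within 5 kb, the nearest such neighbour lay on the longer side at 197 (48.4%, 43.5 to 53.4). Nearness was measured from the summit, and the wide peak itself takes up more room on its longer side. This count therefore cannot decide whether neighbours lie more often on either side.

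The most lopsided peaks were all low. The 10 with the summit nearest to an edge, relative to width, had 14 to 17 reads at the shared background, with the nearer edge 7 to 23 bp away. The extreme was chr5:78555871-78556237, 367 bp wide with 15 reads, whose summit lay 7 bp from the lower edge and 359 bp from the upper. In chr3:149936713-149937196, 484 bp wide with 17 reads, the distances were 21 and 462 bp. Among the 20 widest peaks at the shared background, 7 were off-centre, such as the 806 bp peak on chromosome 11 with 138 bp on the lower side and 667 bp on the upper. The widest, on chromosome 17, was nearly balanced, with 586 and 443 bp, as was the 703 bp peak on chromosome 19, with 346 and 356 bp.

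**Figure D3:**
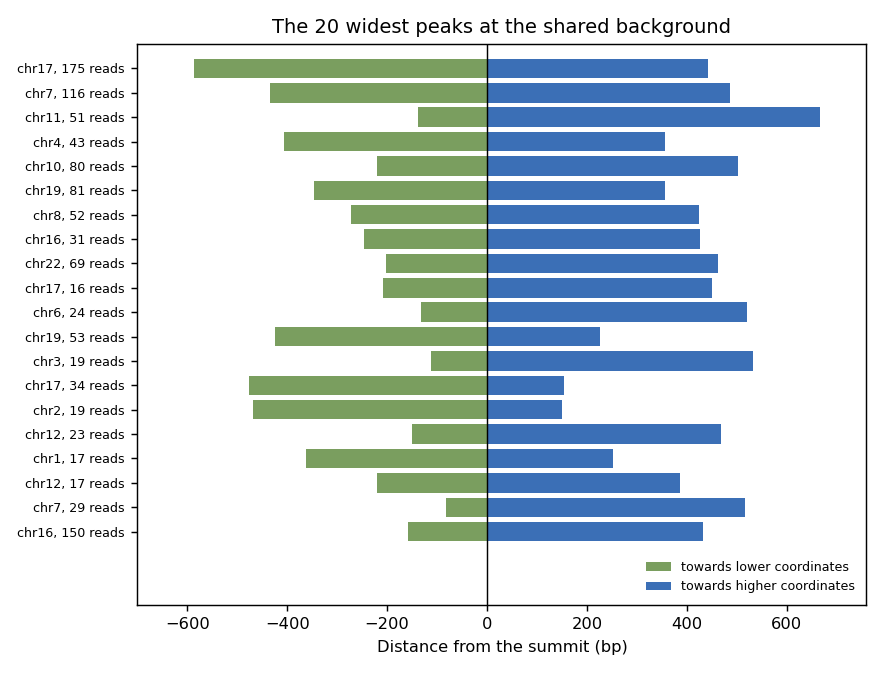
Distance in bp from the summit (0) to each edge for the 20 widest isolated peaks at the shared background, labelled with chromosome and summit pileup. The sides range from balanced (346 and 356 bp on chromosome 19, 81 reads) to lopsided (83 and 516 bp on chromosome 7, 29 reads).

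Isolated wide peaks were found on all 21 chromosomes searched, from 36 on chromosome 22 to 158 on chromosome 2. Per Mb of the span between the first and the last listed peak, they were most frequent on chromosome 22 with 1.03, chromosome 19 with 1 (59 peaks), chromosome 17 with 0.924 and chromosome 20 with 0.923. The lowest values were 0.319 on chromosome 4, 0.357 on chromosome 6 and 0.399 on chromosome 3, against a median of 0.616. Peaks of every width were uneven too, with a 2.6-fold range per Mb, so the isolated wide ones were also taken as a share of the peaks listed on each chromosome. That share ran from 0.351% (0.268 to 0.45) on chromosome 6 to 0.672% (0.512 to 0.866) on chromosome 19, a 1.92-fold range, with a median of 0.531%. Chromosomes 6 and 19 had intervals that did not overlap, but they were picked as the lowest and highest after ranking, so no difference is read from this. The interval of chromosome 19 included the 0.529% of all 21 chromosomes together, and that of chromosome 6 lay below it. The isolation rule kept 30.2% of the wide peaks on chromosome 6 and 42.1% on chromosome 19. On chromosome 22 the share of listed peaks was 0.497% (0.348 to 0.688).

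The isolation rule kept different shares of the wide peaks on different chromosomes. All wide peaks had a 4.92-fold range per Mb, and the isolated ones a 3.21-fold range. Chromosome 19 had 140 wide peaks (2.38 per Mb), of which 42.1% were isolated, and chromosome 16 had 249, of which 26.9% were. On chromosome 18 80.9% of 47 wide peaks were isolated, and on chromosome 4 22.5% of 271. The tall isolated peaks at the shared background, 240 with at least 25 reads, numbered 30 on chromosome 1 and 18 each on chromosomes 7 and 10, and between 4 and 17 on the other chromosomes. Per Mb they were densest on chromosome 19 (0.204, 12 peaks) and chromosome 17 (0.172, 14 peaks), and sparsest on chromosome 5 (0.0332, 6 peaks).

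Some long stretches held no isolated wide peak. Wide peaks that were not isolated were not counted in them, and the densities below are over the full stretch, including any peak-free gap. The longest stretch was 34.5 Mb on chromosome 9, from 36963462 to 71480698, where peaks of all widths numbered 14.9 per Mb beside 94 on the whole chromosome. On chromosome 1, 25.4 Mb from 121484849 to 146889754 held none, at 28 listed peaks per Mb, and on chromosome 3, 23.9 Mb from 43055407 to 66973066 held none, at 23. A stretch of 21.5 Mb on chromosome 4 and one of 21.9 Mb on chromosome 13 were also without any, at 57 and 57.3 listed peaks per Mb. Of the isolated wide peaks, 10 lay within 100 kb of a peak-free gap of at least 1 Mb, and 5 of these had a raised background. Counted separately, 10 isolated wide peaks lay within 100 kb of the first or last listed peak of a chromosome, 1 of them with a raised background. Neither count was made over all listed peaks, so nothing is read from them.

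**Figure D4:**
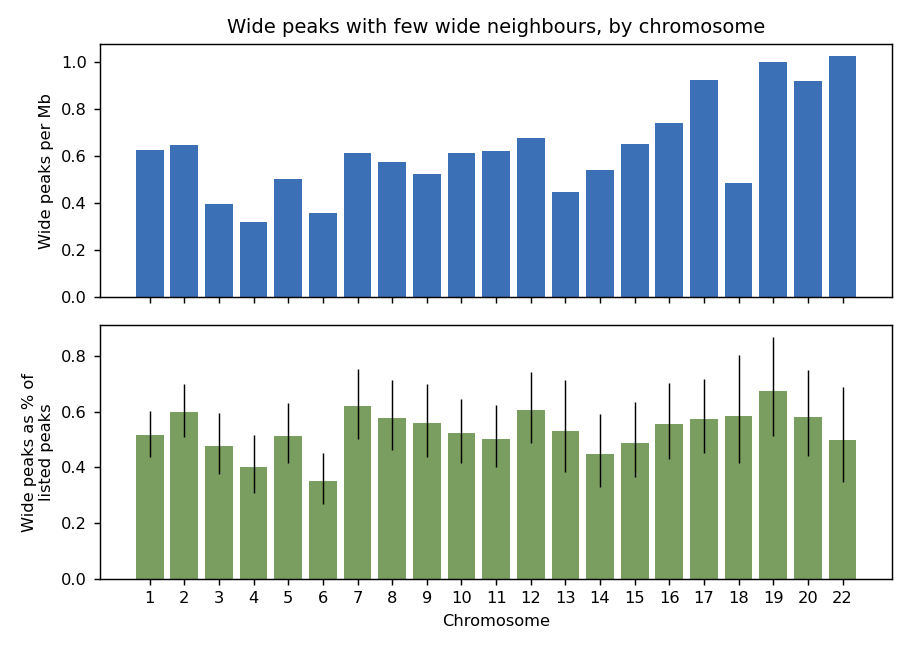
Isolated wide peaks per Mb (upper panel) and as a percentage of all listed peaks (lower panel, with exact 95% intervals) for each of the 21 chromosomes. The upper bars run from 0.319 on chromosome 4 to 1.03 on chromosome 22, and the lower ones from 0.351% to 0.672%.

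Within the isolation limit, 566 peaks (35.4%) had no other wide peak within 500 kb, 555 had 1 and 477 had 2. Tall peaks (at least 25 reads) made up 15.2% (12.3 to 18.4) of the first group, 16.9% (13.9 to 20.3) of the next and 20.5% (17 to 24.4) of the last. The nearest other wide peak was a median of 317 kb away, with quartiles at 120.5 and 705 kb. A few nearly touched. Within 5 kb of each other, 54 isolated wide peaks formed 24 groups, 6 of them of 3 peaks, and 15 of the groups held a peak with a raised background. In the group of 3 at chr5:34189969-34193211, the peaks had 84 to 87 reads over backgrounds of 14.5 to 20.2. At chr13:46962402-46964559 both peaks had the shared background, and a peak of 116 reads and a fold of 22.1 stood beside one of 20 reads and a fold of 3.97.

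Narrow peaks were nearly as frequent around the average listed peak as around the isolated wide ones. At least 1 narrow peak had its summit within 5 kb of the summit at 1241 of 1598 (77.7%, 75.5 to 79.7), where the share over all peaks of these chromosomes was 74.6%. The mean number was 1.84, against 1.74 around narrow peaks and 6.21 around wide peaks that were not isolated. No narrow neighbour was found at 357 (22.3%, 20.3 to 24.5), 1 at 452, 2 at 333, and 6 or more at 50 (3.13%, 2.33 to 4.1). Around narrow peaks 6 or more was met at 3.01%. These shares rest on the authors' lenient threshold, as is shown by the alternative settings in the closing section.

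By distance, the gap to narrow peaks was widest within the first kb. Between 0.5 and 1 kb from the summit there were 24.3 narrow neighbours per 100 isolated wide peaks (388 in all), against 18.8 per 100 narrow peaks. From 2 to 5 kb the mean per 0.5 kb step was 18.2, and from 5 to 10 kb it was 18.1, against 17.6 and 17.1 for narrow peaks. At the shared background the first value was 22.7. The step below 0.5 kb is partly filled by the wide peak itself and was not compared.

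The number of narrow neighbours did not fall steadily with height, although the tallest classes had the lowest shares. With at least 25 reads, 187 of 278 (67.3%, 61.4 to 72.7) had a narrow neighbour within 5 kb, against 79.3% (76.8 to 81.6) of the 1121 with fewer than 20 reads, and the means were 1.5 and 1.88. In between, the 199 with 20 to 24 reads had the highest share, 82.9% (77 to 87.9), and a mean of 2.07. At the shared background the shares were 64.2% (57.8 to 70.2, n = 240) and 79.2% (76.6 to 81.6, n = 1043). This difference was not particular to isolated wide peaks. For the same height classes at the shared background, narrow peaks had 65.7% and 74.2%, and wide peaks that were not isolated had 80.95% and 92.6%. At any background narrow peaks had 76.6% and 74.35%, and their share was 80.6% at 20 to 24 reads. The 38 tall isolated wide peaks with a raised background had a mean of 3.55 narrow neighbours, and the 240 at the shared background had 1.18. Those 38 also had a lower median fold (4.03 against 8.8) and a larger median width (526.5 against 375.5 bp), and 12 of them were off-centre, against 18 of the 240.

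**Figure D5:**
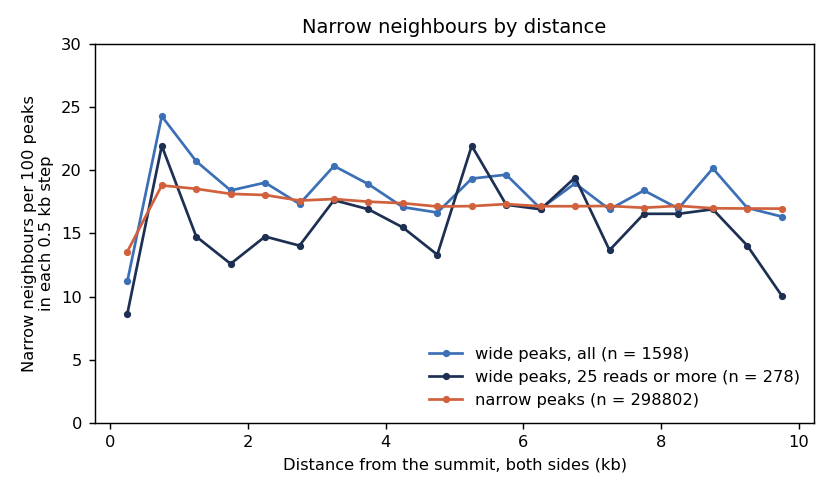
Narrow neighbours per 100 peaks in each 0.5 kb step of distance from the summit, both sides summed, for all isolated wide peaks, for those with 25 reads or more, and for narrow peaks. The line of all isolated wide peaks has its highest point, 24.3, between 0.5 and 1 kb and then runs close to the line of narrow peaks; the line of tall peaks rests on 278 peaks and varies more between steps.

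The neighbours were about as low as narrow peaks in general. Their median pileup was 14 reads, the same as over all narrow peaks, and 75.8% of the 2939 had 12 to 15 reads, beside 80.6% of all narrow peaks. The isolated wide peak was taller than all its narrow neighbours within 5 kb at 932 of 1241 (75.1%, 72.6 to 77.5), level with the tallest at 98 and lower at 211. Width and height come from the same coverage and the neighbours were narrow by definition, so nothing is read from this share. Neighbours were most numerous at chr5:34189969-34190538, 570 bp wide with 84 reads over a background of 19.3, which had 12. The next places had 10 each, chr11:194081-194587 (25 reads) and chr2:228248806-228249750 (22 reads in 945 bp). Among the 10 isolated wide peaks with most narrow neighbours, 7 had a raised background, and its part in their number was not tested.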

How the data were processed

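ChIP-seq of ETV6-HA and untagged ETV6 pools of Reh cells was grouped by the transduction label. Per the submitters' processing notes, the tools were MACS2 2.1.1.20160309 and Bowtie2 2.2.3, and the build was hg19. The settings of both are not given in the sources used. The authors deposited 1 peak list (narrowPeak layout) for the tagged pool. The deposited fold values are linear ratios of the reads at the summit to those of the local background. The deposited columns of −log10 values give p and q at the summit, with q of at most 0.1 throughout. The deposited score column was not used. The other deposited columns hold start, end and summit.

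Pileup and background were solved from fold = (pileup + 1)/(background + 1) and the Poisson upper tail. Pileups were whole within 0.05 reads for all peaks but 1. A background within 0.005 of the lowest, 4.29 reads, counts as shared. That the background came from the untagged pool is an assumption, and the depth of the libraries was not used. The solving, the choice of peaks and the neighbour counts were checked on simulated data.

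Lists of peaks to name were fixed by width, pileup, fold, lopsidedness and number of narrow neighbours, and as the widest per chromosome. Only a part of each list is named, and some higher ranks are left out where lower ones are named. The group named on chromosome 13 was picked from the groups of close peaks instead. The list of the widest at the shared background, the height classes, the arm lengths and the band genes were added after values were seen. The rule and lists were chosen with earlier results of these data known. Alternatives varied width and isolation limits, q, background and windows. Sequences and gene distances need an hg19 genome and were not analysed here. Tools were Python 3.11.15 with pandas 2.3.3, scipy 1.17.1, numpy 2.4.6 and, for figures, matplotlib 3.10.9.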

Additional observations from a re-analysis of the deposited data

How the results depend on the processing

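Of 78 values recomputed under 15 settings, 42 stayed within the interval of the reported value (or within 1.5 times for counts and densities), 36 moved and 0 reversed; these are levels with no direction. With a width limit of 250 bp the median width was 284 bp, off-centre summits 29.4%, peaks with a narrow neighbour 68.5%, raised background 7.21% and chromosome 19 density 0.544 per Mb. With 400 bp there were 536 peaks, with median width 454 bp, fold 3.97 and pileup 21 reads, a narrow neighbour at 81.9% and raised background at 17%. With no other wide peak within 500 kb there were 566 peaks, with 334 bp, 35.2% off-centre, 68.9% with a neighbour, 6.54% raised and 0.204 per Mb on chromosome 19. Fewer than 3 within 1000 kb left 924 peaks, with 34.9% off-centre, 72.9% with a neighbour and 0.391 per Mb. Without an isolation limit there were 3584 peaks, with 354 bp, fold 3.59, 19 reads, 86.7% with a neighbour, 27.7% raised and 2.38 per Mb. Keeping only q of at most 0.01, also for neighbours, gave 30.1% off-centre, fold 3.59 and 32.3% with a neighbour, since fewer narrow peaks remain. A neighbour was found at 29.1% within 1 kb, 49.6% within 2 kb and 91.5% within 10 kb. Off-centre summits were 46.5% at over 20% from the midpoint and 19.4% at over 30%. The causes of the other shifts were not tested. No paired analysis was possible because each group is 1 pool and the result comes from no test, and no replicate could be left out. At the shared background 1 read shifts the fold by 0.189.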
